A study of Mus musculus with 472 samples.

Results

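Axon guidance receptors and their ligands were described in single retinal ganglion cells, the output neurons of the retina. The 46 genes were chosen by family: 9 EphA and 5 EphB receptors, 5 ephrin-A and 3 ephrin-B ligands, 3 Robo receptors and 3 Slit ligands, 8 plexins, 2 neuropilins, the netrin receptors Dcc and Neo1 with 4 Unc5 receptors, and 2 netrins. All 46 were found among the 55450 genes of the deposited table, and they were read in every cell of the series. The cells came from C57BL/6J mice aged 7 to 9 weeks with no treatment and no genetic change named, and formed a single group. Each was patched in a flat-mounted retina, stimulated with blue and green light, and aspirated; libraries followed Smart-seq2, which copies whole transcripts and tags no single molecule. The recordings were not analysed here. Animals are not named in the labels, so the cells together count as 1 sample. No difference between cells was tested, and every interval below covers counting error only.

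These families steer growing axons. Eph receptors are tyrosine kinases that bind ephrins on neighbouring cells; EphA receptors mainly bind the lipid-anchored ephrin-As, EphB receptors mainly bind the transmembrane ephrin-Bs, and graded levels of both order the projection of ganglion cells onto the superior colliculus. Slit proteins repel axons that carry Robo receptors, netrins attract through Dcc and repel through Unc5 receptors, and class 3 semaphorins bind neuropilins that signal through class A plexins. Mature neurons keep many of these proteins at axons and synapses.

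The depth of a cell ran from 58907 to 13004880 gene counts, with 5184792.5 as the median. Ribosomal RNA loci, which stayed in these totals, took a median of 17.1% of a cell's gene counts and at most 97.7%. The limit for a positive gene was 10 counts per 1000000 (CPM), which is about 51.8 reads at the median depth. The median cell had 5554.5 positive genes. A code in the library names splits the cells into 5 groups, A to E, of which E is the smallest with 19 cells. They are called runs here, and that the code marks a sequencing run is an assumption. The median of positive genes was 3024 in run D and 5253.5 to 6563 in the other runs. The cell type label was checked against 12 pan-RGC markers, of which the median cell was positive for 10, and 95.6% of cells were positive for 6 or more. Markers of neighbouring retinal cells were also read: 3 or more of 7 bipolar cell markers were positive in 30.9% of cells, 3 or more of 8 amacrine markers in 42.8%, 3 or more of 8 rod markers in 64.8%, and 3 or more of 8 Muller glia markers in 79.4%.

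A few guidance genes were present in most ganglion cells and several were nearly missing. Robo2, which encodes a Slit receptor, was positive in 74.6% of cells (95% interval 70.4% to 78.4%), and the ephrin-A receptor gene Epha5 in 70.8% (66.4% to 74.8%). Plxna2, a semaphorin receptor, was positive in 62.9%, Dcc in 55.7%, the ephrin gene Efna5 in 53.6% and the Slit gene Slit2 in 53.2%. These 6 genes passed 50% of cells, beside a background of 19.2% of the 22436 genes positive in any cell. Another 27 genes lay between 10% and 50%, 8 between 1% and 10%, and 5 below 1%. The 5 rarest were Epha2 in 4 cells, Ntn4 in 3, Robo3 and Efna4 in 2 each, and Epha1 in 1. The median share over the 46 genes was 19.4%, against 9.74% over all genes positive in any cell. Of the 33 genes positive in 10% of cells or more, 25 had their lowest share in run D, the run with the fewest positive genes per cell. How many of all genes were lowest in run D is not given here, so the 25 are no result about guidance genes.

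**Figure D1:**
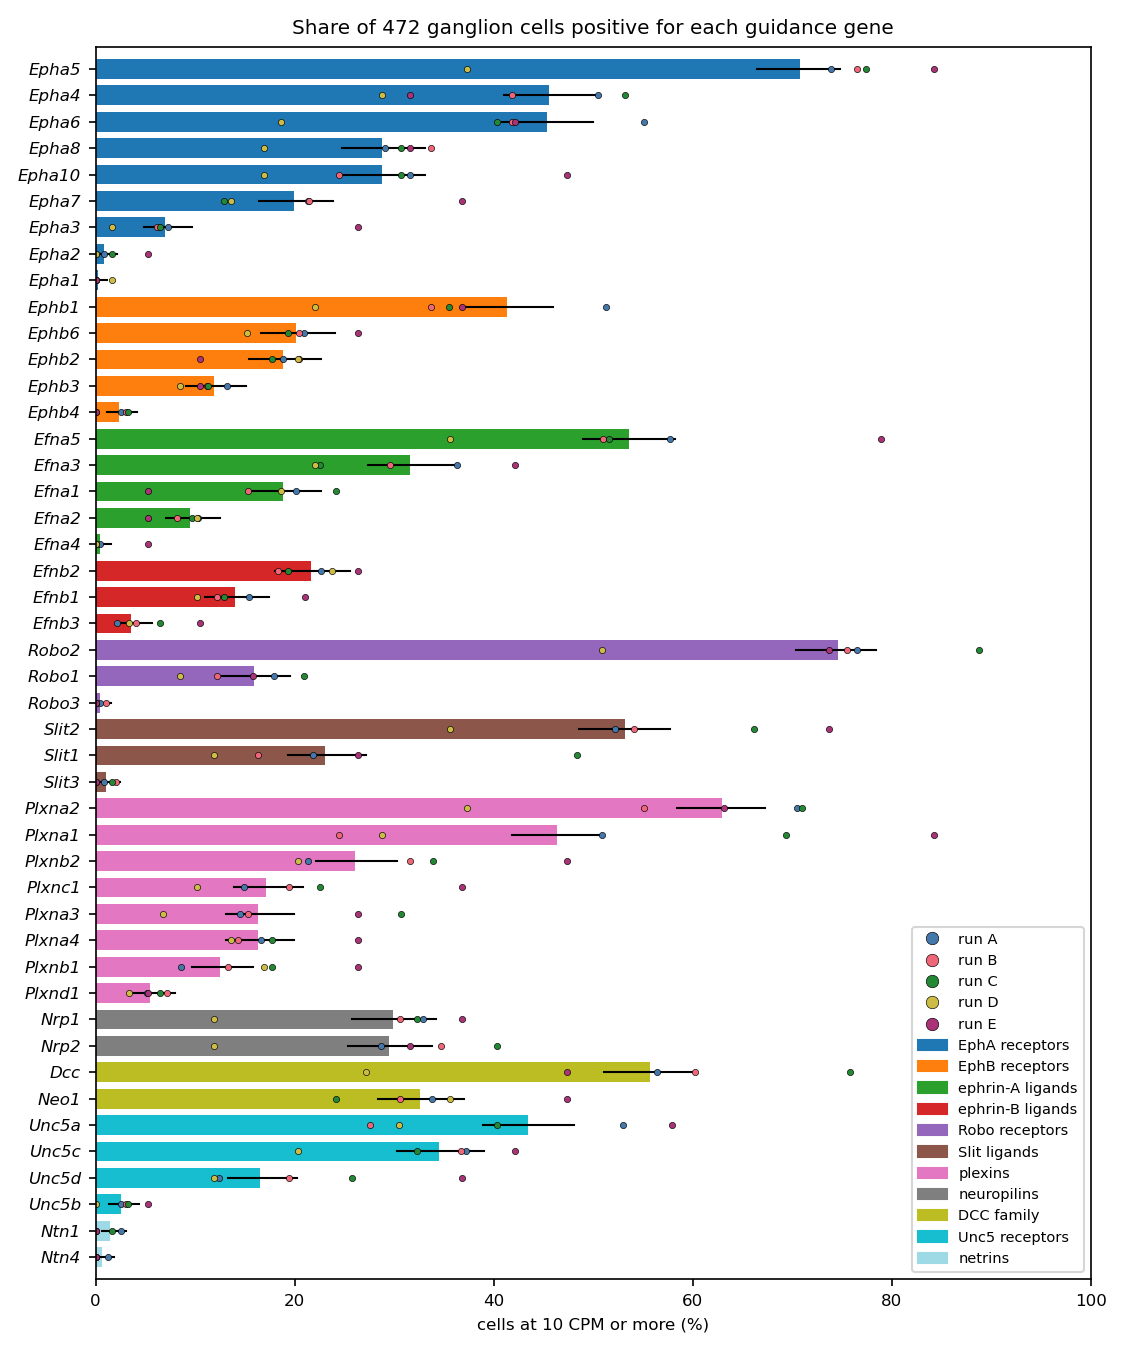
Share of cells at 10 CPM or more for each of the 46 genes, grouped by family. Bars give all cells of the 5 runs together. Black lines are exact 95% intervals (counting error only) and points the 5 runs. Robo2 and Epha5 lead with 74.6% and 70.8%, Ntn1 and Ntn4 stay below 2%, and most run D points lie left of the bar's end.

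Positive cells of the most frequent genes were not merely at the threshold. The median over positive cells was 103.3 CPM for Robo2, but 22.2 CPM for Efnb2. Robo2 ran from 0 to 827 CPM with a median of 70.8 CPM, and 38.98% of cells had 100 CPM or more. Epha5 ran from 0 to 1678 CPM with a median of 42.1 CPM, and Plxna2 from 0 to 1519 CPM with a median of 36.9 CPM. Many cells lay well above the threshold and others at or near 0, most clearly for Dcc: its quartiles were 0.189 and 118.6 CPM, and 30.7% of cells had 100 CPM or more. Excess variability (how far the SD of log2(CPM + 1) exceeds that of genes with a like mean) placed 4 of the 33 genes above the 90th percentile of 10796 genes. These were the EphB6 gene Ephb6 (96.9), Dcc (96.8), Slit1 (93.7) and the neuropilin gene Nrp1 (91.6). The median percentile of the 33 genes was 60.8, and 24 of them lay above 50.

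**Figure D2:**
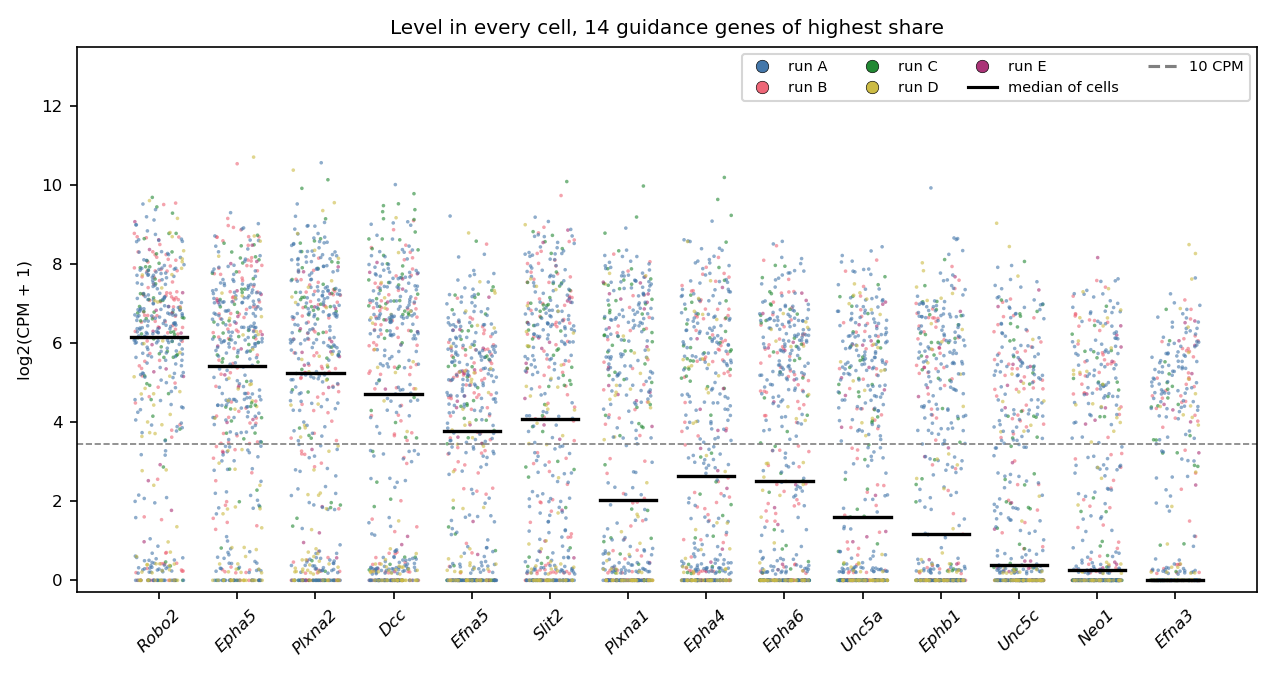
Level of the 14 guidance genes of highest share in every cell, as log2(CPM + 1) on the vertical axis; each point is a cell coloured by run, the black line is the median of all cells and the dashed line is 10 CPM. For Dcc, Slit2 and Plxna1 many cells lie near 0 and many well above the dashed line.

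Per length the order changed, since exon lengths differ between these genes, for example 1599 bases for Efna4 and 25433 for Slit2. Exon length here joins all annotated exons of a gene. Its median was 7103 bases, against 3498 for protein-coding genes, and the median gene spanned 110969 bases, against 17403. On the scale of transcripts per 1000000 (TPM, counts over exon length) the highest mean level belonged to Efna5, at 26.3 ± 44.6 TPM (SD over all cells). Unc5a, a netrin receptor gene, had 23.7 ± 41.97 TPM, the receptor gene Epha6 had 21.1 ± 34.9 TPM, Efna3 20.7 ± 48.04 TPM, Efna1 20.5 ± 54.9 TPM and Robo2 19.6 ± 25.3 TPM. The SD exceeded the mean for each of these genes, so neighbours in this order do not differ beyond their spread between cells. Of the 10 genes leading by TPM, 6 also led by mean CPM. Summed by family, EphA receptors had 84.4 ± 84.4 TPM and took 21.9% of all guidance TPM, ephrin-As had 74.1 ± 99.1 TPM and 19.2%, plexins 56.9 ± 63.3 TPM and 14.7%, and Ntn1 with Ntn4 0.379 ± 2.47 TPM.

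Promoter sequences are shown for 3 genes that span the observed range: Efna5, highest in level per length, Efnb2, which differed with retinal position genes (below), and Epha1, rarest of all. Each run holds 250 bases before to 50 bases after the annotated start, on the gene's strand, from RefSeq on GRCm38.p6; capitals mark each CG dinucleotide, which reads the same on both strands. Efna5 lies at chr17:62881268-62881567, Efnb2 at chr8:8661193-8661492 and Epha1 at chr6:42373219-42373518, all on the minus strand.
Efna5: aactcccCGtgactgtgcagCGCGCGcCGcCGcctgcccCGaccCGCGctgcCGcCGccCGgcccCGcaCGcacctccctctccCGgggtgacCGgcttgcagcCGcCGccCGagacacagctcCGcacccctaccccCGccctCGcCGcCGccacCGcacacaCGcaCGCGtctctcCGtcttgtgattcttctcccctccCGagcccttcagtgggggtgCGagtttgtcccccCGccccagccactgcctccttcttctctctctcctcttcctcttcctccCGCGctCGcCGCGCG
Efnb2: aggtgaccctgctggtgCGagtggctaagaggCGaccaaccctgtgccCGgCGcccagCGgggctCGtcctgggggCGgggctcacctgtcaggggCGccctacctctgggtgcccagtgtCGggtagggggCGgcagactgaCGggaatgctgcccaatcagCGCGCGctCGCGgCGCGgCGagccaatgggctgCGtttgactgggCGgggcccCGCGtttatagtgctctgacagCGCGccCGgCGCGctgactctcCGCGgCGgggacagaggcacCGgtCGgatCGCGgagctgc
Epha1: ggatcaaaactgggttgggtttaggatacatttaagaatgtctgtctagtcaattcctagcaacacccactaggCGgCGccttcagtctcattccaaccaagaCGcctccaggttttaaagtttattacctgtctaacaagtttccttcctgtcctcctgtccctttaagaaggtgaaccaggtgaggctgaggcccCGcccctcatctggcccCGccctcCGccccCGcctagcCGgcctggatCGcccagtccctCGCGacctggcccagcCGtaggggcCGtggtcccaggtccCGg
Efna5 holds 38 CG dinucleotides, Efnb2 35 and Epha1 14. Promoters were matched for 39 of the 46 genes, taking the one richest in CG where a gene had several. At least 15 CG dinucleotides were found in 82.1% of these genes, against 64.2% of the 13662 matched genes positive in any cell and 37.1% of all 27025 genes in the table. Matched genes positive in 50% of cells or more held a median of 30 (17 to 38), and those positive in under 10% a median of 18 (10 to 41), so these ranges overlap. The letters TATAAA, sought on both strands, were found in Slit2 and Efnb2 (2 of 39), against 7.85% of the matched genes positive in any cell and 13.7% of all genes in the table.

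EphA receptors formed the broadest family. At least 1 EphA gene was positive in 87.5% of cells (84.2% to 90.3%), and 48.9% of cells had 3 or more. After Epha5 came Epha4, whose protein also binds ephrin-Bs, with 45.6% of cells and a highest value of 1174 CPM, and Epha6 with 45.3% and at most 381.6 CPM. Epha8 was positive in 28.8%, as was Epha10, whose protein lacks kinase activity, Epha7 in 19.9% and Epha3 in 6.99%. Epha4, Epha5 and Epha6 were positive together in 22.7% of cells, Epha5 was the lone positive of the 3 in 85 cells, and 81 cells had none. Those 81 cells had a median of 2542 positive genes, against 5554.5 over all cells. EphB receptors were found in 64.2% of cells, led by Ephb1 with 41.3% and followed by Ephb6, another member without kinase activity, with 20.1%. Ephb2 was positive in 18.9%, Ephb3 in 11.9% and Ephb4, known from blood vessels, in 2.33%.

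Ephrin-As were found in 69.3% of cells and ephrin-Bs in 33.3%. Besides Efna5, Efna3 was positive in 31.6% of cells, Efna1 in 18.9% and Efna2 in 9.53%. The genes Efna1, Efna3 and Efna4 are neighbours on chromosome 3 (GRCm38): Efna1 at 89271733 to 89281142, Efna3 at 89313899 to 89322965 and Efna4 at 89333390 to 89338028. Their shares differed, since Efna4 was positive in 2 cells (0.424%). An antisense gene shares 14.1% of the exon bases of Efna3 and was itself positive in 0.636% of cells. Among ephrin-Bs, Efnb2 was positive in 21.6% of cells with a highest value of 264.3 CPM, Efnb1 in 13.98% and Efnb3 in 3.602%. An Eph receptor and an ephrin were positive in the same cell in 75.2% of cells (71.1% to 79.04%; 55.9% to 89.5% by run). Independent shares within 5 bins of positive genes per cell would give 74.5%. An EphA with an ephrin-A was found in 63.8% of cells, against 63.5% expected in this way, and an EphB with an ephrin-B in 22.5%, against 23.4% expected.

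Robo2 led the Robo family, and Slit2 and Slit1 were the most frequent Slit genes. Robo2 was positive without Robo1 in 61.02% of cells and with it in 13.6%, while Robo1 was positive alone in 11 cells; the genes lie side by side on chromosome 16, Robo1 at 72308306 to 73046095 and Robo2 at 73891839 to 74411825. Robo3, known for midline crossing in the hindbrain and spinal cord, was positive in 2 cells. Slit2 ran from 0 to 1092 CPM with a median of 15.9 CPM. Slit1 was positive in 23.1% of cells with at most 469.5 CPM, 34 cells had Slit1 without Slit2, and its mean level was 12.1 ± 30.1 TPM, against 8.67 ± 14.7 TPM for Slit2, a gap within the spread (SD) between cells. Slit3 was positive in 5 cells. The share of Slit1 was 48.4% in run C and 11.9% to 26.3% in the other runs, and what sets run C apart was not tested. Receptor and ligand often shared a cell: Robo2 and Slit2 were positive together in 43.6% of cells, against 42.8% expected within bins.

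Plexins were positive in 87.1% of cells and neuropilins in 45.8%. Besides Plxna2, the class A genes Plxna1, Plxna3 and Plxna4 were positive in 46.4%, 16.3% and 16.3% of cells. Plxna1 varied most by run, with 24.5% in run B and 84.2% in run E, and an antisense gene shares 10.7% of its exon bases. The semaphorin receptor genes Plxnb2, Plxnc1, Plxnb1 and Plxnd1 were positive in 26.1%, 17.2%, 12.5% and 5.51% of cells. Nrp1, also a receptor for vascular endothelial growth factor, was positive in 29.9% and Nrp2 in 29.4%. Both together were positive in 64 cells, Nrp1 alone in 77 and Nrp2 alone in 75. A neuropilin and a class A plexin were positive together in 42.2% of cells, against 39.6% expected, and 17 neuropilin cells lacked a class A plexin.

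Netrin receptors were common, while Ntn1 and Ntn4 were close to undetected. At least 1 of Dcc and Neo1 was positive in 67.6% of cells and at least 1 Unc5 gene in 63.98%. Neo1, which also binds repulsive guidance molecules, was positive in 32.6% of cells, Unc5a in 43.4%, Unc5c in 34.5%, Unc5d in 16.5% and Unc5b in 2.54%. Of Dcc, Unc5a and Unc5c, 70 cells carried all 3, 93 carried Dcc alone, and 21.2% of cells carried none. Ntn1, the classical attractant, was positive in 7 cells with at most 58.1 CPM, and Ntn4 in 3 with at most 37.2 CPM. Ntn3, a secreted netrin gene outside the 46, was positive in 12.1% of cells with at most 541.4 CPM. A netrin receptor was positive without Ntn1 and Ntn4 in 81.8% of cells, and 9 of the 10 cells with Ntn1 or Ntn4 carried a receptor, against 8.78 expected.

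The number of guidance genes in a cell moved with the number of all positive genes. The median cell was positive for 11 of the 46 (quartiles 7.75 and 15), with a range from 0 to 32. The lowest run median was 6, in D, and the highest 15, in E. Over all cells, which share runs and differ in quality, the Pearson correlation with positive genes was 0.795 and the Spearman correlation 0.770, given as descriptions. By bins of positive genes the medians were 4, 9, 12, 14 and 15. The 7 cells with no guidance gene had at most 828 positive genes, and the cell with 32 had 8937.

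**Figure D3:**
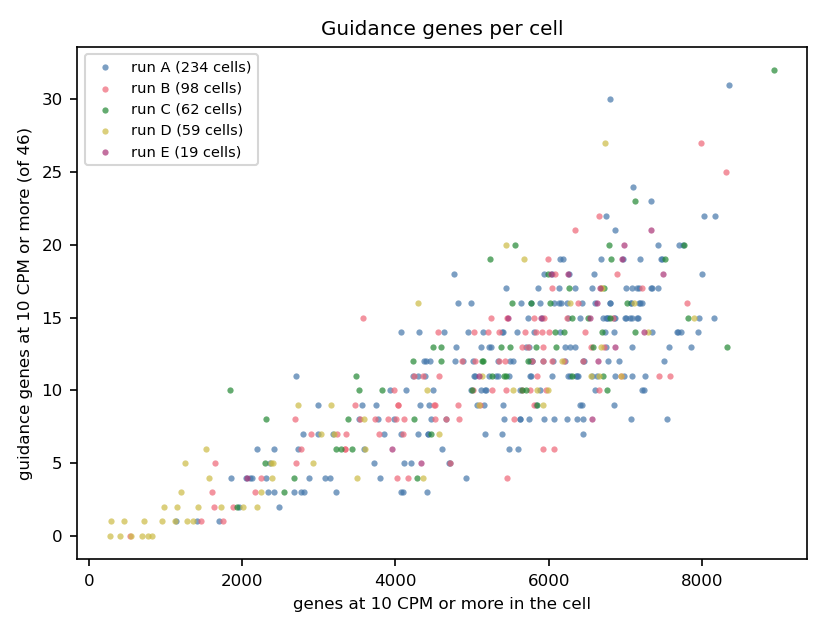
Guidance genes at 10 CPM or more in each cell (vertical axis, of 46) against all genes at 10 CPM or more in that cell (horizontal axis); each point is a cell, coloured by run. The count climbs with the number of positive genes, and run D, with a median of 6 guidance genes, holds many of the cells at the lower left.

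Genes that mark position in the retina were read next, since Eph and ephrin levels form gradients across the developing retina. There Tbx5, Tbx3, Tbx2 and Aldh1a1 mark the dorsal side and Vax2 the ventral side. Tbx2 was positive in 42.8% of cells, Vax2 in 40.04%, Tbx3 in 13.98%, Tbx5 in 6.78% (32 cells) and Aldh1a1 in 6.57% (31 cells). Isl2, linked to crossed projection, was positive in 40.3%, and Zic2, linked to uncrossed projection, in 2 cells. Aldh1a3 was positive in 6 cells and Foxd1 in 1. Vax1 was positive in no cell, and 3 counts, the limit taken for a 0, would be 0.636% of cells. Tbx5 and Vax2 were positive together in 6 cells, against 15.9 expected within bins, while Tbx2 and Vax2 met in 90, against 94.2 expected.

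Efnb2, which encodes an ephrin-B known from the dorsal side of the developing retina, was more frequent in cells with Tbx5 or Aldh1a1. It was positive in 18 of 32 Tbx5 cells (56.2%, 37.7% to 73.6%) and in 19.1% of cells without Tbx5 (15.5% to 23.1%). Its level had a median of 14.2 CPM and a highest value of 103.2 CPM in Tbx5 cells, and a median of 0 and a highest value of 264.3 CPM in the others, so the groups overlap. The difference was 37.2 percentage points, 32.9 points within bins of positive genes, and 7 of 10796 genes positive in 10% to 90% of cells had a larger one; 12.8% of those genes were higher by 20 points or more. In run A the shares were 58.8% of 17 Tbx5 cells and 19.8% of the rest, and over the other runs 53.3% of 15 Tbx5 cells and 18.4% of the rest. Among cells without 3 bipolar or 3 amacrine markers they were 35.3% of 17 Tbx5 cells and 18.1% of the rest. Aldh1a1 cells were positive for Efnb2 in 45.2% (27.3% to 63.97%) and the rest in 19.95%, beside a background of 8.12% of genes higher by 20 points or more; 5 Aldh1a1 cells without those markers remained, with 20% positive against 19.3% of the rest. Beside the commoner dorsal genes the difference was small: Efnb2 was positive in 27.2% of Tbx2 cells and 17.4% of the rest, 4.27 points within bins, and in 28.8% of Tbx3 cells and 20.4% of the rest, 4.07 points within bins. Larger differences were found for 66.9% of genes beside Tbx2 and 55.6% beside Tbx3. In Vax2 cells the share of Efnb2 was 17.99% (12.8% to 24.2%), against 24.03% (19.2% to 29.4%) in the rest, so the intervals overlap. The plain difference was -6.04 points, where 99.7% of genes had a higher value, and within bins Efnb2 was 12.6 points lower.

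Over all cells, other Eph and ephrin genes gave smaller plain differences beside the position genes than the 37.2 points of Efnb2 beside Tbx5. Epha5 was positive in 90.6% of Tbx5 cells and 69.3% of the rest, 10.3 points within bins, and 9.69% of genes had a larger difference. Among cells without 3 bipolar or 3 amacrine markers its shares were 94.1% and 64.2%, a wider gap than that of Efnb2 in the same cells. Efnb1 was positive in 28.1% of Tbx5 cells (13.7% to 46.7%) and 12.95% of the rest, and in 11.8% and 10.6% among cells without 3 bipolar or 3 amacrine markers. Ephb2, ventrally enriched in the developing retina, was positive in 22.8% of Vax2 cells and 16.3% of the rest, a difference of 6.50 points that was 3.54 within bins. Efna5 was positive in 66.7% of Vax2 cells and 44.9% of the rest, where 6.72% of genes were higher by 20 points or more, and the difference was 13.8 points within bins. Epha6 was positive in 25.8% of Aldh1a1 cells (11.9% to 44.6%) and 46.7% of the rest, 29.4 points lower within bins, where 0.176% of genes were lower by 20 points or more. In run A it was positive in 50% of 10 Aldh1a1 cells and 55.4% of the rest, and over the other runs in 14.3% of 21 and 37.8%. Among cells without 3 bipolar or 3 amacrine markers it was positive in 0% of 5 Aldh1a1 cells and 44.5% of the rest. Beside the dorsal gene Tbx2, Epha6 was instead higher, in 57.9% of Tbx2 cells and 35.9% of the rest, 13.6 points within bins, and 6.71% of genes had a larger difference. Cells with Tbx5 or Vax2 had more positive genes: medians were 6342 in Tbx5 cells and 5446.5 in the rest, and 6199 in Vax2 cells and 5014 in the rest.

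**Figure D4:**
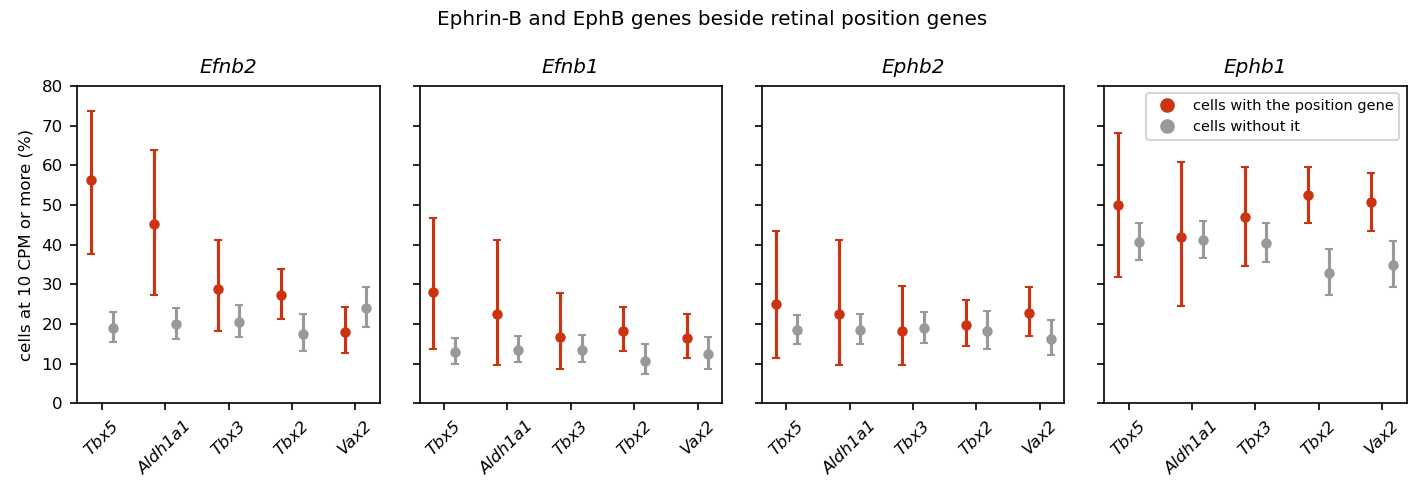
Share of cells at 10 CPM or more for Efnb2, Efnb1, Ephb2 and Ephb1 in cells with (red) and without (grey) each of 5 position genes; error bars are exact 95% intervals that cover counting error only. For Efnb2 the red point stands at 56.2% beside Tbx5 and 45.2% beside Aldh1a1, with grey points near 20%, and the order is turned beside Vax2.

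Guidance genes were then compared between 7 sets of cells chosen by markers of ganglion cell types and all other cells; none of the markers is a guidance gene. A difference of 20 percentage points or more was counted as a rule of size, not a test. The sets overlap, with 72.7% of cells in at least 1 set and 33.5% in 2 or more, and each had more positive genes per cell than the rest. Markers of other retinal cells also differed between sets and the rest, and their part in these differences was not tested. Spp1 and Kcng4, known together from alpha ganglion cells, were both positive in 22.5% of cells, and 82 of these cells were in run A. In these, 5 genes were higher by 20 points or more, beside a background of 7.62% of genes. Unc5a was positive in 65.1% of the set (55.2% to 74.1%) and 37.2% of the rest, Epha6 in 65.1% and 39.6%, and Unc5c in 53.8% and 28.96%. Plxna1 was positive in 64.2% of the set and 41.3% of the rest, and Epha7 in 35.8% and 15.3%. Within bins of positive genes, 0 of the 5 kept a difference of 20 points: they lay between 14.2 and 19.2 points. Median positive genes were 6462.5 in the set and 5365 in the rest, and 3 or more Muller glia markers were found in 96.2% of the set and 74.6% of the rest.

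Tbr1, a transcription factor of several ganglion cell types, was positive in 79 cells, with 5 genes higher by 20 points or more, beside a background of 3.47%. Unc5c was positive in 58.2% of Tbr1 cells (46.6% to 69.2%) and 29.8% of the rest, and this difference of 28.5 points was 23.7 within bins and 30.4 in run A alone. Epha6 was positive in 68.4% of Tbr1 cells and 40.7% of the rest, Epha4 in 64.6% and 41.7%, Plxna2 in 81.01% and 59.3%, and Epha10 in 45.6% and 25.4%. These 4 lay between 13.3 and 19.5 points within bins. Of the 79 Tbr1 cells, 39 also belonged to the Spp1 and Kcng4 set, so the differences of Unc5c and Epha6 in these sets rest in part on the same cells. Amacrine markers were found in 53.2% of Tbr1 cells and 40.7% of the rest.

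Col25a1 and Cdh6, known from direction-selective cells, were both positive in 50 cells. Slit2 was positive in 78% of them (64.04% to 88.5%) and 50.2% of the rest, Robo2 in 96% and 72.04%, and Epha5 in 90% and 68.5%, beside a background of 4.99% of genes. Slit2 had a median of 65.9 CPM in the set and 10.1 CPM in the rest, and its difference of 27.8 points was 21.1 within bins; Robo2 and Epha5 gave 15.8 and 13.6 points. Mmp9 and Htr1d were both positive in 23.3% of cells, where Slit2 was positive in 70.9% of the set and 47.8% of the rest, Epha8 in 45.5% and 23.8%, and Dcc in 70.9% and 51.1%. The first 2 passed 20 points, beside a background of 5.41%, and neither did within bins (14.6 and 15.5 points). Within bins Unc5c, named after its value was seen, was instead 21.05 points lower in the set than in the rest, while its plain difference was -11.8 points. The 2 sets share 21 cells, which is 42% of the Col25a1 and Cdh6 set and 19.1% of the Mmp9 and Htr1d set.

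Hpcal4 and Kctd8 were both positive in 22.2% of cells, with a median of 6535 positive genes, against 5137 in the rest. Of 33 genes in the range of the background, 3 were higher by 20 points or more, beside 27.9% of all genes in that range: Slit1 in 45.7% of the set (35.96% to 55.7%) and 16.6% of the rest, Unc5a in 63.8% and 37.6%, and Plxnb2 in 43.8% and 20.98%. Slit1 was 22.6 points higher within bins, Plxnb2 15.2 and Unc5a 6.06. In run A the share of Slit1 was 42% of the set and 16.3% of the rest. Bipolar markers (3 or more) were found in 50.5% of the set and 25.3% of the rest, amacrine markers in 60.95% and 37.6%, rod markers in 76.2% and 61.6%, and Muller glia markers in 92.4% and 75.7%. Slit1 was itself positive in 30.1% of cells with bipolar markers and 19.9% of those without, 6.18 points within bins. Beside Muller glia markers its shares were 27.2% and 7.22%, 19.9 points within bins. Values within bins are unsteady beside these markers: for Ephb3 a plain difference of 4.55 points became -20.3, so the 19.9 points carry little weight. With amacrine markers the shares of Slit1 were 30.2% and 17.8%, and with rod markers 23.2% and 22.9%. Cells positive for Opn4 or Eomes, genes of intrinsically photosensitive ganglion cells, numbered 75, and 0 genes passed 20 points, beside a background of 0.871%. Their largest differences were Plxnb2 with 41.3% of the set and 23.2% of the rest, Unc5a with 58.7% and 40.6%, and Epha7 with 30.7% and 17.9%. Amacrine markers were found in 56% of these cells and 40.3% of the rest, and bipolar markers in 40% and 29.2%; Plxnb2 itself moved with such markers.

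The single gene that was lower by 20 points or more in a set was Epha4 beside Foxp2, a transcription factor of some ganglion cell types. It was positive in 8 of 36 Foxp2 cells (22.2%, 10.1% to 39.2%) and in 47.5% of the other cells (42.7% to 52.3%), beside a background of 0.509% of genes lower by 20 points or more. Its level had a median of 0.742 CPM and a highest value of 211.2 CPM in Foxp2 cells, and a median of 7.31 CPM and a highest value of 1174 CPM in the rest. The difference was -25.3 points overall and -27.5 within bins. With 1 CPM as the limit for both genes, which puts 53 cells in the set, it was 0.973 points, so the direction was not kept. That limit changed the cells of the set as well as the calls of Epha4, and the effects of these changes were not separated. In the 36 cells the median of Epha4 lay below 1 CPM, and in the rest above it. Over all genes, lower shares of that size were also few in the other sets: 0.167% beside Spp1 and Kcng4, 0.0926% beside Col25a1 and Cdh6, 0.0741% beside Tbr1, 0.0371% beside Mmp9 and Htr1d, and 0 beside Opn4 or Eomes and beside Hpcal4 and Kctd8. No guidance gene was higher by 20 points or more in Foxp2 cells, where 1.27% of genes were. Efna5 was positive in 69.4% of Foxp2 cells and 52.3% of the rest, and Unc5c in 50% and 33.3%. Bipolar markers were found in 50% of Foxp2 cells and 29.4% of the rest.

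**Figure D5:**
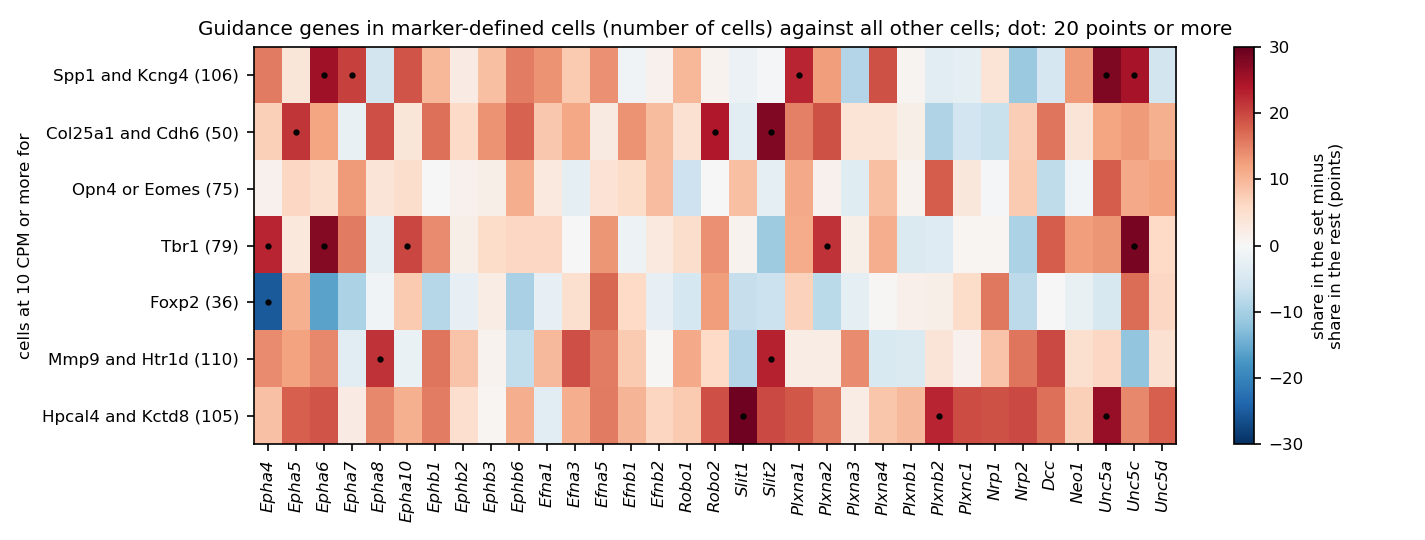
Difference in the share of positive cells, set minus rest, in percentage points (colour), for 33 guidance genes positive in 10% of cells or more (columns) and 7 marker-defined sets (rows, number of cells in brackets); dots mark 20 points or more. Positive differences prevail, most of all in the Hpcal4 and Kctd8 row, and the deepest blue is Epha4 beside Foxp2.

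Pairs of guidance genes mostly met in the same cell about as often as independent shares give. Over 528 pairs of the 33 genes, observed over expected cells within bins of positive genes had a median of 1.05, with quartiles of 0.993 and 1.13; without bins the median was 1.195. Most of the 21 listed pairs of receptors or of receptor and ligand lay close to 1: Epha5 with Efna5 met in 41.1% of cells, against 40.6% expected, Robo1 with Robo2 in 13.6%, against 13.2%, and Dcc with Unc5c in 22.7%, against 21.8%. Nrp2 with Plxna3, partners in semaphorin 3F signalling, met in 33 cells (22.9 to 45.7), against 25.4 expected. Among cells without 3 bipolar or 3 amacrine markers this pair met in 9, against 9.40 expected. Dcc with Ntn1 met in 6 of all cells (2.21 to 12.96), against 4.21. Epha4 with Efnb3, a rare gene outside the 33, met in 5 cells, against 8.76 expected, the lowest ratio of the listed pairs (0.571). Among the 528 pairs the lowest ratio belonged to Efna3 with Plxna4, 18 cells against 27.5 expected, followed by Ephb3 with Unc5d, 7 against 10.5. The highest ratios were Plxnb1 with Plxnb2 in 34 cells, against 17.8 expected, Ephb2 with Plxna4 in 27, against 16.1, and Plxnb1 with Neo1 in 37, against 22.1. Pairs at either end were picked after their counts were seen.

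The class B plexin genes Plxnb1 and Plxnb2 moved with markers of other retinal cells. The share of all genes that differed as much beside these markers is not given here, so this is not read as particular to plexins. Plxnb1 was positive in 27.4% of the cells with 3 or more bipolar markers (20.4% to 35.4%) and 5.83% of the rest, and Plxnb2 in 45.2% and 17.5%; within bins the differences were 22.6 and 25.8 points. In cells with 3 or more amacrine markers, Plxnb1 was positive in 22.8% and in 4.81% of the rest. Its difference was widest beside cone markers: it was positive in 41.2% of the 51 cells with 3 or more of 6 cone markers (27.6% to 55.8%) and 9.03% of the rest, 31.6 points within bins. Of the 34 cells positive for both plexins, 32 had 3 bipolar or 3 amacrine markers, as had 48.5% of all cells, and 2 had neither, where 0.946 were expected. Across the 33 genes, 30 had a higher share in cells with such markers than in cells without, with medians of 5918 positive genes in cells with them and 5163 in cells without. A like count over all genes is not given here, so the 30 are not read as particular to guidance genes. The differences were largest for Plxnb2, Plxnb1, Plxnc1 (25.3% and 9.47%) and Slit2 (61.1% and 45.7%), while Efna3 was positive in 29.7% of the cells with markers and 33.3% of those without. Whether this RNA came from the ganglion cell or from neighbours was not tested.

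Other guidance genes gave the setting. Of 20 semaphorin genes, 1 was positive in 50% of cells or more: Sema6a, a transmembrane ligand of class A plexins, in 74.2%. Sema3e, Sema5a and Sema7a followed with 46.2%, 45.1% and 37.7%, and the lowest were Sema3d, Sema3g and Sema3c with 1, 2 and 14 cells. Among 24 further cues, receptors and adhesion molecules, 7 passed 50%, led by Nrcam (81.8%), Rtn4 (81.1%), L1cam (77.5%) and Rtn4rl1 (64.6%), and Plxnb3, Ntn5 and Robo4 were positive in 0 cells. Among 25 intracellular effectors 14 passed 50%. Dpysl2, a collapsin response mediator, was positive in 98.5%, the Rac regulator Chn1 in 90.9%, Ablim1 in 85.4% and Enah, an actin regulator, in 81.1%, while Mical1, Vav2 and Chn2 were positive in 6.14%, 7.20% and 13.8%. The median share was 24.05% over semaphorins, 40.04% over the further cues and receptors and 60.4% over effectors, against 19.4% over the 46 genes.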

How the data were processed

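Full-length cDNA of 472 single ganglion cells (234, 98, 62, 59 and 19 in runs A to E) was read in pairs of 150 bp, per the labels. The authors deposited estimated counts (expected counts) per gene and cell, and 1.37% of the values had decimals. STAR 2.7.0 and the mm10 build are named by the submitters' processing notes. Sources used here do not name the counting tool, annotation or strand setting. Values were rounded and scaled to CPM over 55450 genes without the 92 spike-in RNAs. Positions, exon lengths and overlaps came from GENCODE mouse release 21, promoters from RefSeq (GRCm38.p6); the 25 bases after the start were found, on the strand given, in a transcript of the gene for 34 of 39 promoters. Intervals of shares are exact (Clopper-Pearson, 95%) and, like the limit of 3 counts at a share of 0, cover counting error only. Expected pairs were summed over 5 equal bins of positive genes per cell, and differences within bins were weighted by the cells of the set. Each cell was picked singly, and doublets were not called. Bipolar and amacrine markers stand in for other cells; Pax6, on the amacrine list, is also a ganglion cell gene.

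The guidance genes, marker lists and sets were chosen with earlier results of these data known. The text may name all 46 genes, all position genes but 1 that is not reported here, the 4 highest and 3 lowest of each further list, genes past 20 points in a set or else the 3 largest, the listed pairs and the 5 highest and 5 lowest ratios. Exons of another gene overlap 14 of the 46 genes, 4 of them over 5% or more of their exon bases. Shares, differences and pair counts were tested on simulated data. Software was matplotlib 3.10.9, scipy 1.17.1, numpy 2.4.6 and pandas 2.3.3 under Python 3.11.15.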

Additional observations from a re-analysis of the deposited data

Results flagged for a closer look

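Spike-in RNAs, which enter no comparison, took a median of 0.738% of all counts and 31.1% in the cell where their share was highest; guidance genes were scaled without them.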

How the results depend on the processing

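No paired analysis was possible because the cells form 1 group and no result comes from a test. The 6 genes in 50% of cells or more were 11 with a limit of 1 CPM, 0 with 100 CPM and 11 in run A alone; the median of 11 genes per cell was 14 and 3 with those limits. The share of cells with an Eph receptor and an ephrin (75.2%) was 83.3% at 1 CPM, 11.7% at 100 CPM, 83.5% in cells with 3000 or more positive genes and 79.9% in run A. Genes past 20 points changed in number in every set. At 1 CPM there were 8 beside Spp1 and Kcng4 (5 before), 1 beside Opn4 or Eomes (0), 0 beside Foxp2 (1, where the Epha4 difference of -25.3 points turned to 0.973) and 8 beside Hpcal4 and Kctd8 (3); at 100 CPM 0 beside Spp1 and Kcng4, 1 beside Opn4 or Eomes and 0 beside Mmp9 and Htr1d (2). In cells with 3000 or more positive genes the counts were 2 beside Spp1 and Kcng4, 1 beside Col25a1 and Cdh6 (3), 1 beside Opn4 or Eomes, 1 beside Tbr1 (5), 0 beside Mmp9 and Htr1d and 1 beside Hpcal4 and Kctd8. Without the cells with bipolar or amacrine markers they were 8 beside Spp1 and Kcng4, 9 beside Col25a1 and Cdh6 and 5 beside Hpcal4 and Kctd8. Those sets then held 47, 24 and 37 cells, so their shares carry more counting error. Without ribosomal RNA loci, and after thinning to 1000000 counts, they were 5 and 5 beside Hpcal4 and Kctd8, and 2 and 1 beside Opn4 or Eomes. Run A alone gave 3 beside Opn4 or Eomes and 1 beside Mmp9 and Htr1d. Within bins of positive genes, an alternative chosen after seeing the data, 0 were left beside Spp1 and Kcng4 and 1 each beside Col25a1 and Cdh6, Tbr1, Mmp9 and Htr1d (another gene, Unc5c), and Hpcal4 and Kctd8. The cause of these changes was not tested. Shares over all genes under these alternatives are not given here, so the counts have no background beside them. Of the 10 genes leading by TPM, 6 led by CPM. Efnb2 in Tbx5 cells minus the rest (37.2 points) ran from 26.02 to 37.2 points under 5 alternatives of the CPM limit, scaling, depth and rounding added after seeing the data, and in Aldh1a1 cells (25.2 points) it was 16.7 at 1 CPM. With under 20 Tbx5 cells left, the Efnb2 shares were 35.3% and 18.1% without cells with bipolar or amacrine markers and 58.8% and 19.8% in run A. Sets of under 20 cells gave no value, as for Foxp2 in run A and without bipolar or amacrine markers, and for Col25a1 and Cdh6, Tbr1, Foxp2, and Hpcal4 and Kctd8 at 100 CPM. At the lowest depth of 58907 counts, 10 CPM is under 1 read, so calls in the shallowest cells rest on single reads.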
